A study of Mus musculus with 10 samples.

Results

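YAP (encoded by Yap1) and TAZ (encoded by Wwtr1) are coactivators that carry signals from cell shape, contact and substrate stiffness into the nucleus, where they act through the DNA-binding TEAD factors (Tead1 to Tead4). In the Hippo pathway the kinases LATS1 and LATS2 phosphorylate YAP and TAZ and keep them in the cytoplasm, and angiomotin-like proteins such as AMOTL2 hold them there. Lats2, Amotl2 and Ankrd1 are themselves known transcriptional targets of YAP and TAZ in many cell types, so the pathway has its own inhibitors among its targets. In neural progenitors YAP and TEAD activity is known for promoting proliferation and holding back differentiation.

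Chromatin accessibility at these 9 genes was read from ATAC-seq, which marks open DNA by the cuts of a transposase. The cells were neural stem cells cultured from the adult mouse subependymal zone. The genes were chosen by name, with earlier results of these data known. Their members in the data were all peaks with a summit in the gene body or within 50 kb of it, 957 of the 759157 peaks in the 10 deposited lists, which merged into 154 of 137454 regions. The cultures were wild type (WT) or came from Cdkn1b-/- mice (p27KO), which lack the cell cycle inhibitor p27 in all cells and were kept on a C57BL/6J background. All cultures came from mice of 10 weeks, and each library was made from 50000 cells. Proliferating cultures (PRO; 3 WT and 2 p27KO libraries) were free-floating neurospheres in 20 ng/ml EGF and 10 ng/ml FGF, 3 days in vitro per the labels. Cultures at the onset of differentiation (DIFF; 3 WT and 2 p27KO libraries) had spent 2 days on Matrigel with FGF, followed by 24 h without mitogens in 2% serum. Substrate, serum and mitogens therefore changed together between PRO and DIFF, and their parts cannot be told apart. The labels do not say whether the libraries of a group came from separate animals, so p-values measure the spread between these libraries.

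The lists held between 57534 and 91801 peaks; WT PRO lists had 76372 to 80179, p27KO PRO lists 83854 to 91801, WT DIFF lists 57534 to 88738 and p27KO DIFF lists 67589 to 73220. A Cdkn1b promoter peak was called in all 6 WT lists and in none of the 4 p27KO lists, as the titles give them and against a free-text description naming WT cells for the p27KO libraries. The same held for the promoters of the Y-linked Ddx3y, Eif2s3y and Uty, so that sex and genotype cannot be told apart. All 8 neural stem and progenitor markers had a promoter peak in every library. Of the 4 markers each of microglia, endothelial cells and pericytes or fibroblasts, 3, 0 to 1 and 1 to 4 had one per library. The counts for the last set were 2 to 3 in WT PRO, 1 to 4 in WT DIFF and 2 in each p27KO library, and those of the other types lay within 1 to 3 of 3 for ependymal cells, 2 to 3 of 3 for neurons and 1 to 2 of 3 for mature oligodendrocytes. The ependymal counts were 2 to 3 in WT PRO and 1 to 2 in each other group. The part of these cell types in the results was not tested.

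Past the threshold in WT and in p27KO taken alone, 5 regions differed between PRO and DIFF by at least 1 normal score on average over the genotypes. They lay at Lats2 (3 regions), Tead4 and Wwtr1. Their sequences are shown as 300 bases of the plus strand of GRCm38 around the median peak summit, because they are the stretches of DNA on which the comparison turns. Capitals mark GGAATG on either strand, the core of the element that TEAD factors bind. TGANTCA, the AP-1 element, was searched as well and was in none of the 5 windows. The windows are chr14:57736265-57736564 (Lats2 +9.7 kb), chr14:57753643-57753942 (Lats2 -7.7 kb), chr14:57760525-57760824 (Lats2 -14.6 kb), chr6:128296222-128296521 (Tead4 +4.4 kb) and chr3:57530894-57531193 (Wwtr1 +44.9 kb). Distances run along the gene from the transcript start that carries its promoter peak.
Lats2 +9.7 kb: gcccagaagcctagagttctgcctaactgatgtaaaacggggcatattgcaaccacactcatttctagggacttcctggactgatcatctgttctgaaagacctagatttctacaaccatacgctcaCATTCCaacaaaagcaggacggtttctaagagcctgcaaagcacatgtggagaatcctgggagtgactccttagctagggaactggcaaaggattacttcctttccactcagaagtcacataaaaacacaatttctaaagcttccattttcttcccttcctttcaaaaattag
Lats2 -7.7 kb: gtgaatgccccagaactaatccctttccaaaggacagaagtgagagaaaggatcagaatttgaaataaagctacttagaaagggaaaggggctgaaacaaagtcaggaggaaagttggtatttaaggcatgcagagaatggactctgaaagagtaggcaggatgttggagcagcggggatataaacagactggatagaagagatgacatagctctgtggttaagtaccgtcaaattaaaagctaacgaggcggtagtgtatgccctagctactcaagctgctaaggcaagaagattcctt
Lats2 -14.6 kb: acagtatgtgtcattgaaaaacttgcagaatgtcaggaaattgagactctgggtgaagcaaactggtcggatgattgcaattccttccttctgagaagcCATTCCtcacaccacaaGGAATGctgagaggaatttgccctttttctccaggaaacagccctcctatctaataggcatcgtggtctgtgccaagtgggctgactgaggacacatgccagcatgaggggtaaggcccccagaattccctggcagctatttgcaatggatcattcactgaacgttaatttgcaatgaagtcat
Tead4 +4.4 kb: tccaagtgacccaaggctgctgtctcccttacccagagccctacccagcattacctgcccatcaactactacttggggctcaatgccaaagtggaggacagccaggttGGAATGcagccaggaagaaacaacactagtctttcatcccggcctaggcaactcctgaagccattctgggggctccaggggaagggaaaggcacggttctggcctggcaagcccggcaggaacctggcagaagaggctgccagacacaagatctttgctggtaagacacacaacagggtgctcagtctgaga
Wwtr1 +44.9 kb: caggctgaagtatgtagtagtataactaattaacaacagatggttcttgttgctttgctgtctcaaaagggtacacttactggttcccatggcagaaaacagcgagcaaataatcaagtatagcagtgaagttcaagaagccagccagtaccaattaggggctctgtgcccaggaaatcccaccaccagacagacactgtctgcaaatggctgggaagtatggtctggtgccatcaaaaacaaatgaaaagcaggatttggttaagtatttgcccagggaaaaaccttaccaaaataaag
The Lats2 -14.6 kb window held 2 matches on opposite strands, pointing away from each other, with CATTCC from base 100 and GGAATG from base 117. The Lats2 +9.7 kb window held CATTCC at base 128, the Tead4 window held GGAATG at base 109, and the Lats2 -7.7 kb and Wwtr1 windows held no match. A match in this window describes letters and is not evidence of binding.

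Lats2, the kinase that restrains YAP and TAZ, held both the largest rise and the largest fall of the 88 regions tested at the 9 genes. An intronic region had a peak in every PRO library and in no DIFF library, 2 upstream regions rose at DIFF, 1 of them from no peak in any PRO library, and the promoter in between was not called. The gene lies on the minus strand at chr14:57689662-57758388. Its promoter peak (chr14:57745266-57746690) sits at a coding transcript start 12.3 kb inside the outermost annotated start, which belongs to a longer transcript and had a peak in 1 library only. At the promoter the fold enrichment, the ratio of stacked fragments at the summit to the local background, was 10.3, 10.0 and 9.49 in WT PRO, 8.10, 8.83 and 11.6 in WT DIFF, 14.1 and 13.1 in p27KO PRO and 11.3 and 12.8 in p27KO DIFF libraries. The PRO and DIFF libraries overlapped, and the averaged DIFF minus PRO difference was 0.03 ± 0.13 (SE; limma, adjusted p = 0.897). Within PRO, both p27KO libraries lay above all WT libraries, a difference of 0.49 ± 0.18 that was not called (limma, adjusted p = 0.807). Differences are in normal scores of the rank of the fold enrichment within each list, where regions without a peak share the lowest rank. They are not log2 folds.

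The Lats2 +9.7 kb region (chr14:57736227-57736849, intron) had a fold enrichment of 11.1, 9.69 and 10.1 in WT PRO and 10.7 and 11.0 in p27KO PRO libraries, and no peak in the 3 WT DIFF and 2 p27KO DIFF libraries. The 5 PRO peaks stood on 39 to 47 stacked fragments over a background of 2.61 to 3.96, around the 74.0th to 82.0th percentile of the tested regions of their libraries. PRO and DIFF libraries did not overlap. The region met the minimum of 5 libraries for testing only through its PRO peaks, and the DIFF libraries share the lowest rank. Its SE and p-values therefore add no support beyond the presence of these peaks. The averaged difference was -2.14 ± 0.17 (SE; limma, adjusted p = 1.1e-05), with -2.13 ± 0.21 in WT and -2.14 ± 0.26 in p27KO (adjusted p = 0.000122 and 0.000707).

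The Lats2 -14.6 kb region (chr14:57760459-57761243, intergenic, 2287 bp before the outermost Lats2 start) had no peak in any PRO library. Its fold enrichment was 4.81, 4.16 and 6.14 in WT DIFF and 6.62 and 7.10 in p27KO DIFF libraries, on 17 to 28 stacked fragments. All 5 DIFF libraries were thus above all 5 PRO libraries. The region met the minimum of 5 libraries only through its DIFF peaks, and the PRO libraries share the lowest rank. Its SE and p-values likewise add no support beyond the presence of these peaks. The averaged difference was 1.86 ± 0.13 (SE; limma, adjusted p = 7.09e-06), with 1.62 ± 0.16 in WT and 2.09 ± 0.20 in p27KO (adjusted p = 0.000127 and 0.000359).

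The Lats2 -7.7 kb region (chr14:57753481-57754007), in an intron of the longer transcript only, was the single member region called for a difference between genotypes. It had no peak in the 3 WT PRO libraries, but a fold enrichment of 5.51 and 6.61 in the 2 p27KO PRO libraries. At DIFF the fold enrichment was 6.07, 6.02 and 9.52 in WT and 8.92 and 10.5 in p27KO libraries. The p27KO spheres therefore already carried a peak at which the WT spheres had none, on 22 and 26 stacked fragments, and both genotypes carried it at DIFF. The DIFF peaks alone met the minimum of 5 libraries, and the 3 WT PRO libraries share the lowest rank. For differences that involve WT PRO, here and in the next paragraph, SE and p-values therefore add no support beyond the presence of peaks. The region rose at DIFF by 2.14 ± 0.18 in WT and by 0.86 ± 0.22 in p27KO (SE; limma, adjusted p = 7.2e-05 and 0.0244; the p27KO call was lost without p27KO PRO replicate 1 or either p27KO DIFF library, at adjusted p = 0.105 to 0.169), and by 1.5 ± 0.14 on average (adjusted p = 2.5e-05). In PRO the p27KO minus WT difference was 1.55 ± 0.20 (SE; limma, adjusted p = 0.0266), and in DIFF it was 0.27 ± 0.20 (adjusted p = 0.995).

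Differences between genotypes in PRO were rare, with 24 of 70627 tested regions called (0.034%), 2 of them higher in p27KO. The Lats2 region is 1 of these 2. The test of the difference itself, the interaction of genotype and condition, was -1.28 ± 0.28 with an unadjusted p of 0.00073 (limma) and an adjusted p of 1.00. The genotype call in PRO held under 9 of 17 alternative settings and was lost under the other 8, among them leaving out any of the 5 PRO libraries (adjusted p = 0.127 to 0.518), fitting the PRO libraries alone (0.165) and the replicate block (0.087), while the difference stayed between 1.16 and 1.74. The p27KO PRO lists were also longer than the WT PRO lists, and with all lists cut to the shortest the difference was 1.16 (adjusted p = 0.207). The part of sex in this difference cannot be told apart from that of the deletion.

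**Figure D1:**
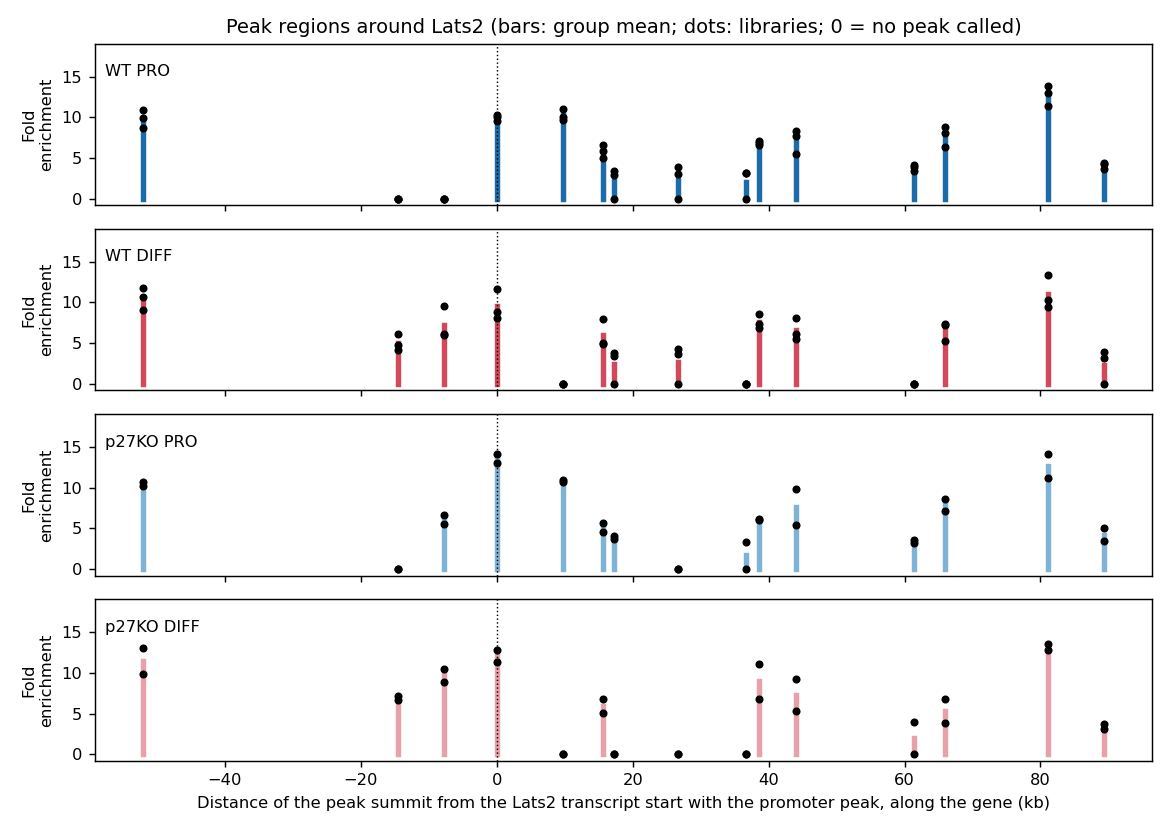
Peak regions around Lats2 that 2 or more libraries share, by distance of the summit from the Lats2 transcript start (kb, x axis), with the mean fold enrichment of each group (bars) and each library (dots) on the y axis; 0 stands for no peak called. The region at +9.7 kb is present in both PRO panels and at 0 in both DIFF panels, -14.6 kb is present at DIFF only, and -7.7 kb is absent in WT PRO only.

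A further intronic Lats2 region, +38.6 kb (chr14:57706987-57707839), rose by 0.57 ± 0.14 (SE; limma, adjusted p = 0.0119), from a fold enrichment of 5.99 to 7.08 in the 5 PRO libraries to 6.80 to 11.1 in the 5 DIFF libraries, which overlapped. It was not called without p27KO PRO replicate 1 or p27KO DIFF replicate 2 (adjusted p = 0.0507 and 0.0553). The other 9 tested regions of the locus, the promoter among them, did not pass the threshold. They included the promoters of the neighbouring genes Sap18 and Xpo4, with differences of 0.32 and 0.06.

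Over all 9 genes, 120 regions were shared by 2 or more libraries, and the 88 shared by 5 or more were tested. The averaged DIFF minus PRO difference was called at 18 of the 88 (20.5%), 10 higher and 8 lower at DIFF, against 27.9% of all tested regions. In WT alone 7 were called (5 higher, 2 lower; 7.95%, against 19.2% of all) and in p27KO alone 7 (4 higher, 3 lower; 7.95%, against 12.3%). The averaged count was 11 without WT DIFF replicate 2 or p27KO PRO replicate 1, 9 without p27KO DIFF replicate 1 and 10 without p27KO DIFF replicate 2; the WT count was 4 without WT DIFF replicate 2, and the p27KO count 2 to 4 without each library but WT PRO replicate 3, WT DIFF replicate 3 and p27KO PRO replicate 2. These shares were not above those of all tested regions, and the results lie in which regions moved and how. Their median averaged difference was 0.13, against 0.04 over all tested regions. Of the 18 calls, 13 were among the 63 regions more than 3 kb from any coding start (20.6%, against 32.8% of all such regions).

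Peaks appearing or vanishing altogether were few. A peak in every PRO and no DIFF library was seen at 2 of 120 regions (1.67%; 2.61% of all), Lats2 +9.7 kb and Tead1 +102.9 kb. The first count was 5 without WT PRO replicate 3 and 4 without WT DIFF replicate 3, the longest DIFF list. The reverse was seen at 2 regions (1.67%; 0.959% of all), Lats2 -14.6 kb and Wwtr1 +44.9 kb. A further 18 regions with a peak in 3 to 4 libraries were too sparse to test, and of these 8 had peaks in PRO libraries only and 3 in DIFF libraries only (44.4% and 16.7%, against 31.8% and 15.6% of all such regions). At 58 regions (48.3%; 38.2% of all) every library had a peak.

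**Figure D2:**
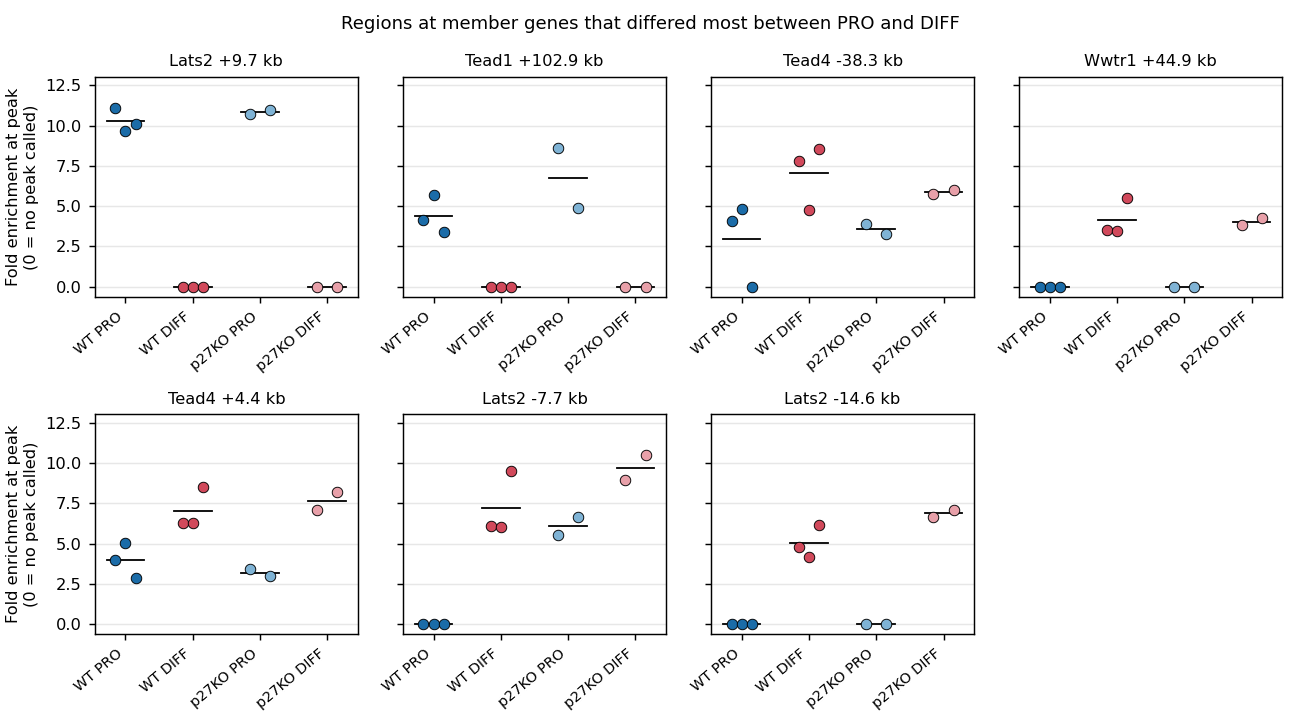
Fold enrichment at the peak in every library (y axis, dots; 0 stands for no peak called) for the 7 member regions with an averaged difference of at least 1 normal score past the threshold, with group means as lines; the x axis gives the 4 groups. At Lats2 +9.7 kb the 5 PRO libraries lie between 9.69 and 11.1 and the 5 DIFF libraries at 0, while at Lats2 -7.7 kb only the WT PRO libraries are at 0.

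Of the coactivators, Wwtr1 (TAZ, minus strand, chr3:57455649-57575910) gained an intronic region and Yap1 had 1 call among 10 tested regions. Other regions, too sparse to test, went the other way. Yap1 +51.5 kb and Yap1 +6.2 kb each had a peak in 4 PRO libraries and 0 DIFF libraries, and Wwtr1 +140.3 kb had peaks in PRO libraries only. Wwtr1 +44.9 kb (chr3:57530910-57531285) had no peak in any of the 5 PRO libraries and a fold enrichment of 3.54, 3.47 and 5.50 in WT DIFF and 3.82 and 4.26 in p27KO DIFF libraries. These were weak peaks of 13 to 25 stacked fragments, present in 5 of 5 DIFF libraries. The region was tested only through these DIFF peaks, so its SE and p-values add no support beyond their presence. The averaged difference was 1.3 ± 0.13 (SE; limma, adjusted p = 4.4e-05), with 1.32 ± 0.17 in WT and 1.29 ± 0.21 in p27KO (adjusted p = 0.000412 and 0.00259). A second intronic region, Wwtr1 +63.5 kb (chr3:57511854-57512833), rose by 0.48 ± 0.13 (limma, adjusted p = 0.0176), with overlapping libraries. Its adjusted p was 0.055 to 0.057 without p27KO PRO replicate 1 or 2 or p27KO DIFF replicate 1. With all lists cut to the shortest, the p27KO difference at +44.9 kb was 0.65 (adjusted p = 0.0537).

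At Yap1 (minus strand, chr9:7931999-8004596), 1 of 10 tested regions was called, the intronic +35.8 kb region (chr9:7968180-7969090). Its fold enrichment was 6.09, 6.35 and 5.37 in WT PRO, 6.02, 9.25 and 8.60 in WT DIFF, 5.99 and 8.33 in p27KO PRO and 7.79 and 8.24 in p27KO DIFF libraries, and the groups overlapped. The averaged difference of 0.53 ± 0.18 (SE; limma, adjusted p = 0.0478) was lost under 10 of 17 alternative settings, among them leaving out any library but WT DIFF replicate 1 and p27KO PRO replicate 2, where adjusted p reached 0.206. The Yap1 promoter (chr9:8003153-8005174) was at 0.06 ± 0.16 (adjusted p = 0.831).

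Among the TEAD factors, 2 regions rose and 1 fell at Tead4, while all 4 called regions of Tead1 fell. Tead4 (minus strand, chr6:128224288-128300823) had its firmest change in the intronic +4.4 kb region (chr6:128295938-128296623). There the fold enrichment was 3.98, 5.02 and 2.88 in WT PRO, 6.25, 6.25 and 8.49 in WT DIFF, 3.41 and 2.98 in p27KO PRO and 7.10 and 8.19 in p27KO DIFF libraries. Every DIFF library lay above every PRO library, and every library had a peak, so that the change was in the rank and not in presence. The averaged difference was 1.43 ± 0.16 (SE; limma, adjusted p = 9e-05), with 1.24 ± 0.21 in WT and 1.62 ± 0.25 in p27KO (adjusted p = 0.00189 and 0.00227). It passed the threshold under all 17 alternative settings.

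Tead4 -38.3 kb (chr6:128338873-128339409), in an intron of the neighbouring gene Tulp3, rose by 1.23 ± 0.22 (SE; limma, adjusted p = 0.00176). Its fold enrichment was 4.10, 4.84 and 0 (no peak) in WT PRO, 7.80, 4.79 and 8.55 in WT DIFF, 3.87 and 3.29 in p27KO PRO and 5.78 and 6.03 in p27KO DIFF libraries. WT DIFF replicate 2 lay just under the highest PRO library. Tead4 -17.8 kb (chr6:128318293-128318771, intergenic) went the other way, by -0.70 ± 0.21 (adjusted p = 0.0274), with peaks in 5 of 5 PRO libraries and 1 of 5 DIFF libraries. Its PRO peaks alone met the minimum of 5 libraries, and the DIFF libraries without a peak share the lowest rank. Its SE and p-value therefore add little beyond the presence of these peaks. The region was not called without any of the 5 DIFF libraries or p27KO PRO replicate 1 (adjusted p = 0.052 to 0.142). The other 10 tested Tead4 regions were not called.

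Tead1 (plus strand, chr7:112679318-112906807), the longest of the 9 genes, had 20 tested regions, of which 4 fell at DIFF and none rose past the threshold. All 4 lay in introns. At +102.9 kb (chr7:112781978-112782265) the fold enrichment was 4.16, 5.67 and 3.42 in WT PRO and 8.62 and 4.90 in p27KO PRO libraries, with no peak in the 5 DIFF libraries. The region was tested only through its PRO peaks, so its SE and p-values add no support beyond their presence. The averaged difference was -1.03 ± 0.22 (SE; limma, adjusted p = 0.00493), with -1.35 ± 0.34 in p27KO (adjusted p = 0.0255; 0.11 and 0.16 without p27KO DIFF replicate 1 or 2) and -0.71 ± 0.28 in WT (adjusted p = 0.101). The region at +81.6 kb (chr7:112760434-112761258) fell from 11.9, 11.4 and 10.9 to 5.38, 4.78 and 9.99 in WT and from 14.7 and 16.9 to 8.43 and 10.7 in p27KO libraries, a difference of -0.79 ± 0.17 (adjusted p = 0.00575).

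The remaining pair of Tead1 regions fell as well. At +162.8 kb (chr7:112841667-112842339) the 5 PRO libraries lay between 8.77 and 13.3 and the 5 DIFF libraries between 5.10 and 8.52, a difference of -0.72 ± 0.17 (SE; limma, adjusted p = 0.00967). At +204.8 kb (chr7:112883698-112884574) they lay between 13.7 and 17.8 and between 8.89 and 13.3, a difference of -0.58 ± 0.15 (adjusted p = 0.0128). The first was not called without p27KO DIFF replicate 1 (adjusted p = 0.0533), and the second without p27KO PRO or DIFF replicate 2 (0.0654 and 0.0593) or when ranked by p-value, where its difference was -0.13 (0.398). At each of the 4 regions no DIFF library reached the lowest PRO library. The share of all called regions without such overlap is not given here, so this is not read as a trait of Tead1. The other 16 tested Tead1 regions, with the promoter, ran from -0.40 to 0.82, and the median over all 20 was 0.11.

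Tead2 (plus strand, chr7:45215753-45233644) had 1 called region of 6, at -34.3 kb near Pth2 (chr7:45181664-45182851), which rose by 0.56 ± 0.13 (SE; limma, adjusted p = 0.00946), its libraries overlapping. Tead3 (minus strand, chr17:28331671-28350817) had none of 6 called by limma, with differences from -0.16 to 0.34 and a median of 0.24.

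**Figure D3:**
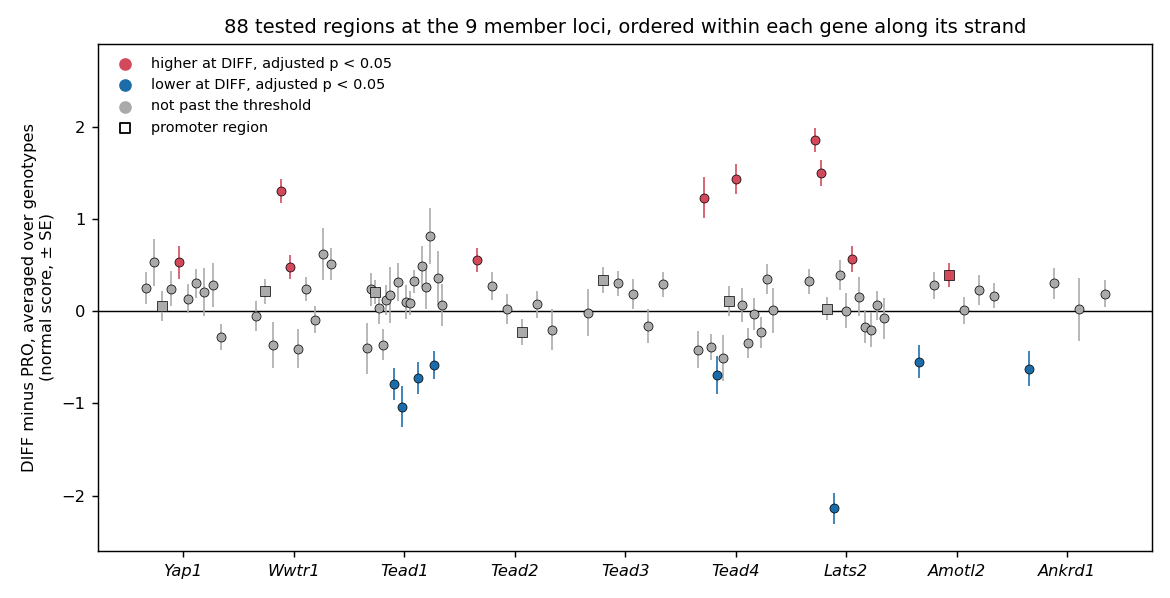
Averaged DIFF minus PRO difference (y axis, normal score, with SE as bars) of the 88 tested regions by gene (x axis), ordered within each gene along its strand; colour marks the direction of those past the adjusted threshold and squares mark promoter regions. Lats2 spans -2.14 to 1.86, Tead1 calls all lie below 0, and Tead3 has no call.

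The 2 remaining genes are an inhibitor and a target. Amotl2 (plus strand, chr9:102716672-102733418) was the only member whose promoter region was called (chr9:102717117-102718819, 1 of 8 promoters tested; 10.6% of promoter regions genome-wide). Its fold enrichment was 8.86, 10.3 and 8.40 in WT PRO, 8.76, 8.49 and 10.9 in WT DIFF, 9.05 and 9.08 in p27KO PRO and 10.5 and 12.1 in p27KO DIFF libraries. PRO and DIFF overlapped in fold enrichment but not in the percentile within the list, whose mean went from 72.6 ± 4.24 at PRO to 81.7 ± 0.673 at DIFF in WT (SD, n = 3 each) and from 69.4 ± 2.26 to 84.1 ± 0.472 in p27KO (SD, n = 2 each). The averaged difference of 0.39 ± 0.13 (SE; limma, adjusted p = 0.0391) was lost under 11 of 17 alternative settings (adjusted p up to 0.137), among them leaving out any library but WT PRO replicate 2 and WT DIFF replicate 3. Amotl2 -29.5 kb (chr9:102687705-102688592, intergenic) fell by 0.55 ± 0.18 (adjusted p = 0.0437) and was lost under 10 of 17 (up to 0.18), among them leaving out any library but WT PRO replicate 1 and p27KO PRO replicate 2.

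Ankrd1 (minus strand, chr19:36111961-36120099), a classical YAP and TAZ target that codes for a muscle ankyrin repeat protein, had no peak region within 3 kb of its start in any library. Of 4 tested regions in its window, the intergenic -30.7 kb region (chr19:36149904-36151197) was called. The fold enrichment was 13.5, 17.1 and 13.3 in WT PRO, 9.0, 6.94 and 11.8 in WT DIFF, 15.5 and 16.5 in p27KO PRO and 12.5 and 13.7 in p27KO DIFF libraries. WT PRO lay above WT DIFF in every library, with a difference of -0.83 ± 0.24 (SE; limma, adjusted p = 0.0316), and the averaged difference was -0.62 ± 0.19 (adjusted p = 0.0288). In p27KO it was -0.42 ± 0.29 (adjusted p = 0.413). The averaged call was lost without WT DIFF replicate 2, p27KO PRO replicate 2 or either p27KO DIFF library (adjusted p = 0.0645 to 0.115), and the WT call without WT PRO replicate 2 or any WT DIFF library (0.0507 to 0.114).

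The promoters of the other members with a promoter peak had a peak in all 10 libraries and were not called. In WT PRO libraries their mean percentiles were 79.8 ± 1.77 (SD, n = 3) for Tead2, 77.5 ± 8.72 for Yap1, 77.2 ± 1.04 for Lats2, 74.0 ± 2.88 for Wwtr1, 72.6 ± 4.24 for Amotl2, 65.4 ± 5.71 for Tead1, 48.0 ± 6.76 for Tead3 and 46.5 ± 5.54 for Tead4. The ranges of the 3 libraries overlapped between neighbours in this order, except between Tead1 and Tead3. The averaged differences of the 8 promoters ran from -0.22 (Tead2) to 0.39 (Amotl2), with a median of 0.16, against 0.13 over all promoter regions. The 3 promoters whose scores followed that of Amotl2 most closely over the 10 libraries were those of Ppfia3, Hsd11b1 and the shared promoter of Caskin2 and Tsen54, with Pearson's r of 0.987, 0.967 and 0.965. They were picked from 13636 promoters, so high values were to be found.

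**Figure D4:**
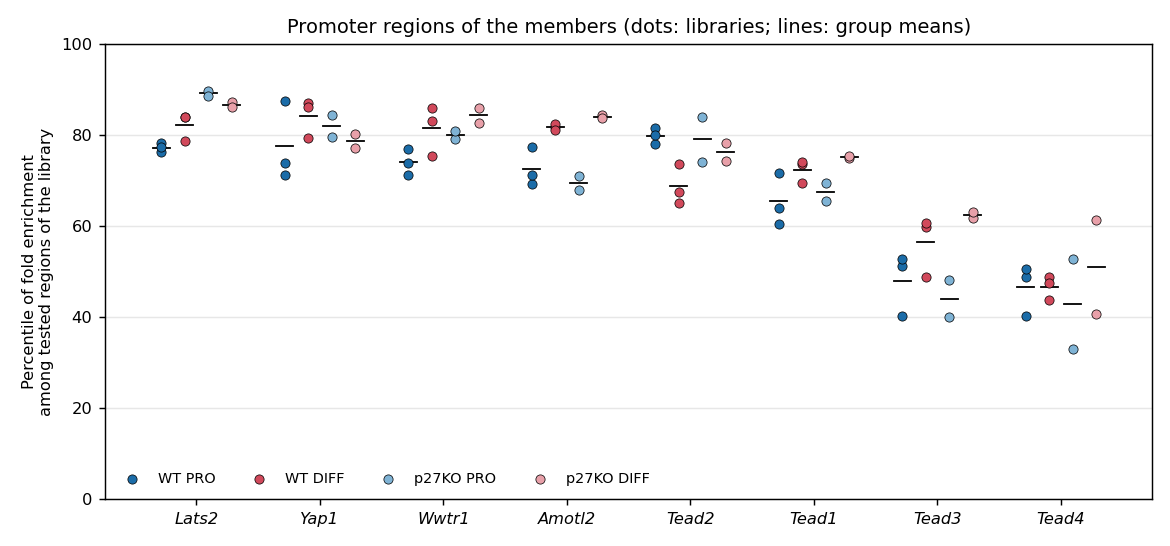
Percentile of the fold enrichment of each promoter region among the tested regions of its library (y axis) for the 8 members with a promoter region (x axis, ordered by mean), with dots for libraries and lines for group means of WT and p27KO, PRO and DIFF. Within each library Tead3 and Tead4 lie below the other 6, and Amotl2 is the promoter with a called DIFF minus PRO difference.

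The number of peaks per library over the 9 loci was 101, 97 and 94 in WT PRO, 80, 83 and 111 in WT DIFF, 110 and 101 in p27KO PRO and 85 and 93 in p27KO DIFF libraries. It followed the length of the lists, at 1.20 to 1.44 peaks at the loci per 1000 in the list. Tead1 had 17 to 27 peaks per library and Ankrd1 3 to 6. Amotl2 had 6, 6 and 6 peaks in WT PRO and 6 and 7 in p27KO PRO libraries, and 8, 6 and 10 in WT DIFF and 7 and 9 in p27KO DIFF libraries, though most lists were shorter at DIFF.

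The genotypes were also compared region by region. Across the 88 tested regions the DIFF minus PRO differences in WT and in p27KO, which share no library, had a Pearson's r of 0.78 and the same sign at 66, against 0.80 and 53681 over all 70627 regions, so that the members did not stand apart in this. The points share the 2 sets of libraries and are not replicates. No member region was called by limma for the interaction (0% of all tested regions; 4 of 88 at an unadjusted p under 0.05, against 3.91% of all) or for p27KO minus WT in DIFF (0.0156% of all; 0 of 88 unadjusted, against 4.91%).

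**Figure D5:**
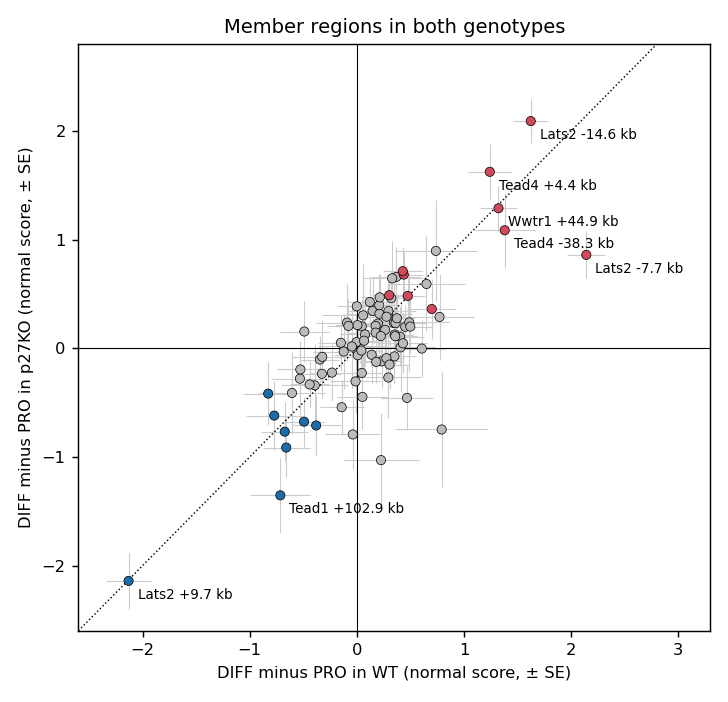
DIFF minus PRO difference in WT (x axis) against that in p27KO (y axis), both in normal scores with SE bars, for the 88 tested regions; colour marks regions past the averaged threshold, red for higher and blue for lower at DIFF, and the dotted line marks equal differences. Most points follow the line, and Lats2 -7.7 kb (2.14 in WT, 0.86 in p27KO) lies furthest below it among the called regions.

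Other genes of the pathway were read at their promoters. A list of 25 genes, called the upstream list here, held genes for the kinase core (Stk3, Stk4, Lats1 and others), its adaptors and its inputs. It also held Vgll1 to Vgll4, which code for cofactors of TEAD factors. Of the 25, 24 had a tested promoter region and 1 was called for the averaged difference. Wwc1, which codes for the KIBRA scaffold that activates LATS kinases, fell by 0.43 ± 0.14 (SE; limma, adjusted p = 0.0409). Its fold enrichment was 5.41, 5.52 and 5.70 in WT PRO, 3.39, 3.11 and 3.80 in WT DIFF, 6.12 and 5.91 in p27KO PRO and 3.96 and 4.25 in p27KO DIFF libraries. All 5 DIFF libraries were below all 5 PRO libraries, but the call held without WT PRO replicate 1 or 2 and was lost without each of the other 8 libraries. Rassf1, a scaffold of the upstream kinases, passed in WT only (0.52 ± 0.16, adjusted p = 0.0479), and its p27KO difference was 0.13 ± 0.20; the interaction was -0.39 ± 0.26 (adjusted p = 1.00). The median of the 24 was 0.14.

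Of 18 genes known as YAP and TAZ targets, all had a tested promoter region and 1 was called. Ccn2 (CTGF, a matricellular protein and the most used YAP target) rose by 0.52 ± 0.14 (SE; limma, adjusted p = 0.0166), and its mean percentile went from 66.6 ± 5.81 to 82.2 ± 1.76 in WT (SD, n = 3 each) and from 58.4 ± 9.0 to 77.7 ± 2.16 in p27KO (SD, n = 2 each). The count of called targets was 0 without p27KO PRO replicate 2 or p27KO DIFF replicate 2 and 3 without WT PRO replicate 3 or WT DIFF replicate 3. The differences were positive at 15 of 18, with a median of 0.16 against 0.13 over all promoter regions, of which 9392 of 13637 were positive. Of all promoter regions 10.6% were called, and the target list ran from 0 to 3 of 18 over the alternatives, so that it cannot be set above or below that share. The upstream list had 1 call among 24 tested promoters, and its distance from that share was not tested.

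GGAATG was found in 21 of the 88 windows of 300 bases (23.9%), against 18.9% of the 70509 windows read over all tested regions. It was in 3 of the 10 member regions that rose at DIFF and 2 of the 8 that fell, against 26.8% and 21.2% of all regions that rose and fell. The Lats2 -14.6 kb window was 1 of 7 member windows with at least 2 matches (7.95%, against 2.38% of all and 4.79% of all that rose). Beyond 3 kb of a coding start, which leaves out the Lats2 -14.6 kb window, GGAATG was in 13 of 63 member windows (20.6%, against 21.1% of all) and in 1 of the 7 that rose (14.3%, against 28.6%), and 2 of 63 held at least 2 matches (3.17%, against 2.83%). TGANTCA was in 9 of 88 (10.2%, against 10.8%) and in 0 of the 8 member regions that fell, while 26.4% of all regions that fell held it. The letters do not show binding, and base composition was not matched between these sets.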

How the data were processed

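ATAC-seq peaks were taken from 1 deposited list per library (10 libraries, 4 groups, from the titles). The authors clipped adapters with Cutadapt, trimmed with Trimmomatic, mapped with Bowtie2 to GRCm38, flagged duplicates (Picard) and called narrow peaks (MACS2, no model, false discovery rate 0.05); versions, shift and extension are not given in the sources used here. The deposited fold enrichment is a ratio of pileup to local background; the deposited −log10 p-value and −log10 q-value were used to rank or filter only. The paper gives the average number of reads per sample that sequencing aimed at, but the read depth of each library is unknown. Pileups were solved from the fold and p-value for 862 of the 957 member peaks (−log10 p under 60), 862 within 0.01; they ran from 10 to 115, median 24, and a weaker site yields no peak. Since peaks were the input, no interval could be given, and no peak does not mean closed chromatin.

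Peaks of all lists were merged (overlap of at least 1 bp). The 70627 regions shared by 5 or more libraries were ranked by fold within each list, turned into normal scores and fitted with limma 3.58.1 (R 4.3.3; 1 mean per group), with Benjamini-Hochberg adjustment over all regions at 0.05 for 6 contrasts; the fit was tested on simulated data. The study's DiffBind test needs alignments, not used here. Annotation was GENCODE M21. A promoter region is the tested region nearest to a coding transcript start, within 3 kb. Named regions are the promoters and those passing any contrast; sequences were read from GRCm38.p6. The members and lists were chosen with earlier results of these data known. Alternatives covered the region minimum, ranking, list length, q-value, 250 bp summit windows, replicate block and left-out libraries.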

Additional observations from a re-analysis of the deposited data

How the results depend on the processing

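Lats2 +9.7 kb, Lats2 -14.6 kb and Tead4 +4.4 kb kept their direction and passed the threshold, averaged and in each genotype, under every alternative that tested them, as did Wwtr1 +44.9 kb except in p27KO with lists cut to the shortest. For the averaged difference these were 17 alternatives at Tead4 +4.4 kb but 11 at each of the others. With peaks in 5 libraries, those regions left the fit whenever a library with the peak was left out or all 10 libraries were required. The alternatives that still tested those regions set peaks of 1 condition against libraries that share the lowest rank. Direction and passing were thus largely fixed in advance and add no support beyond the presence of the peaks. Tead4 +4.4 kb had a peak in every library. The 18 called regions were 14 to 24 under the other settings and 9 to 15 without a library. For WT, 7 calls became 11 when ranked by p-value, 13 with lists cut to the shortest and 4 to 7 without a library; for p27KO, 7 became 1 among regions with a peak in all 10 libraries and 2 to 5 without a library. For p27KO minus WT in PRO the 1 call became 0 among regions present in all 10 libraries, with cut lists, with the replicate block, with only the groups compared, and in some fits without a library (0 to 1); the interaction and the DIFF comparison stayed at 0 (0 to 0).

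Regions with a peak in every PRO and no DIFF library were 1 with cut lists and 2 to 5 without a library; the reverse class ran from 2 to 3 and the class with a peak in every library from 58 to 61. The sum of peaks over the loci changed by -11.25 from PRO to DIFF (-16.2 to -8.42 without a library), but by 3 with cut lists; the length of the lists sets this count. The upstream list's 1 call became 0 among regions present in at least 2 libraries and with the replicate block (0 to 1 without a library). The target list's 1 call became 2 with regions present in at least 2 or in all 10 libraries, and 3 when ranked by p-value, with cut lists or with summit windows (0 to 3 without a library). Promoters near 0 changed sign: Yap1 was at -0.025 when ranked by p-value and between -0.0032 (without WT PRO replicate 2) and 0.147 without a library, and Tead4 at -5.21e-05 among regions present in all 10 libraries and between -0.045 (without p27KO PRO replicate 2) and 0.266 without a library, with -0.00082 without p27KO DIFF replicate 1. Tead3 passed at its promoter when ranked by p-value (0.35, adjusted p = 0.0428). The cause was not tested.

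Deviations of same-numbered libraries correlated at -0.141 to 0.065. Between WT PRO and WT DIFF the correlations were 0.057, 0.065 and 0.033 for the same number and -0.051 to -0.0048 for different numbers. Between p27KO PRO and p27KO DIFF they were -0.141 for the same number and 0.141 for different numbers. With 2 libraries per p27KO group, the deviations of a group are mirror images. Whether replicate numbers pair the libraries was not tested. With the replicate block 17 averaged calls were made, and exchanging the p27KO DIFF numbers, chosen after seeing the data, gave 17, with 0 for p27KO minus WT in PRO. The depth of each library is known only through pileups at called peaks, so weak sites below about 10 stacked fragments are not seen. Differences in list length move the rank shared by regions without a peak.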
